A study of Mus musculus with 8 samples.

Results

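The 35 genes described here encode the proteins of the basement membrane and the factors that organise it. They were taken by name from the deposited gene table: 6 collagen IV chains, 10 laminin chains, 2 nidogens, the proteoglycan and heparan sulfate cores, the Fras and Frem proteins, and matrix proteins and a receptor that bind this layer. All 35 were found among the 54532 genes of the table, and 29 of them passed the filter on low values, which asked for 1 FPKM or more in 4 or more of the 8 libraries. FPKM counts fragments per kilobase of a gene and corrects for library depth. RNA was sequenced from PDGFRα+ cells sorted from mouse hearts on day 7 after a coronary artery was occluded. PDGFRα is a growth factor receptor carried by fibroblasts. There were 4 libraries labelled FTbR2KO, numbered 1 to 4, meant to lack the TGF-β type II receptor in fibroblasts. The 4 TbR2fl/fl control libraries, numbered 5 to 8, carry the floxed receptor gene. Per the labels, mice of both groups were given tamoxifen by intraperitoneal injection, and the cells were not cultured. The sources used here do not give the Cre driver, or the sex and age of the animals. Nor do they say that libraries came from different animals, and the p-values speak only of the spread among libraries, which may be technical.

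A basement membrane is a thin sheet of matrix that lies against cells. Laminins, built of an α, a β and a γ chain, polymerise on the cell surface, where dystroglycan and integrins hold them. Collagen IV, built of 3 α chains, forms a second, covalently crosslinked network. Nidogens and perlecan bridge both networks, and perlecan and agrin carry heparan sulfate chains that bind growth factors. In the heart such a layer surrounds each cardiomyocyte and lines the vessels, and fibroblasts secrete some of its chains.

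The gene targeted in the FTbR2KO label was examined first. Tgfbr2, on chromosome 9 from 116084293 to 116175360 on the minus strand, encodes the subunit that binds TGF-β. It had 60.0, 58.1, 56.9 and 57.8 FPKM in the libraries labelled FTbR2KO, against 49.6, 40.3, 46.7 and 45.4 FPKM in the TbR2fl/fl controls. Every library labelled FTbR2KO lay above every control, which goes against the label (exact two-sided permutation p = 0.0286, the smallest that 4 against 4 allows; limma adjusted p = 0.571). A value for the whole gene cannot show whether an internal exon was removed. Directions below therefore refer to libraries as labelled. Depth was taken as the reads recovered from the FPKM and summed over genes, so reads not assigned to a gene are not in it. It was 16.1 to 22.9 M reads in the libraries labelled FTbR2KO, against 21.2 to 28.7 M in the controls (exact two-sided permutation p = 0.0571). FTbR2KO 1 and TbR2fl/fl 5 stood apart from the other 6 libraries on the axis of largest variance, which held 33.0% of it (scores of -24.4 and -20.9, against -0.108 to 19.0). For several genes the fold change is also given without these 2 libraries, and genes without such a value were not chosen as the stable ones.

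The fibroblast label was checked against markers of several cell types. All 10 fibroblast markers passed the filter, with summed levels of 13517 to 16016 FPKM in the libraries labelled FTbR2KO and 14454 to 19483 FPKM in the controls. Of these 10, 6 had a log2 fold change above 0 and 4 below, with a median of 0.057 and no limma adjusted p below 0.571. In 2 of them, Col1a1 and Col1a2, every library labelled FTbR2KO lay below every control, against 1.89% of all tested genes. Endothelial cells also make basement membranes. Of the 10 endothelial markers 2 passed the filter, and the summed level of all 10 was 21.0 to 27.5 FPKM in the libraries labelled FTbR2KO against 20.2 to 29.9 FPKM in the controls. Tek supplied most of it, with 20.7 ± 3.23 FPKM in the libraries labelled FTbR2KO and 19.9 ± 5.11 FPKM in the controls (SD, n = 4 each), while Pecam1, the defining endothelial adhesion molecule, averaged 0.763 ± 0.317 FPKM in the libraries labelled FTbR2KO and 0.736 ± 0.104 FPKM in the controls. The mural list, for pericytes and smooth muscle, had 9 of 10 markers past the filter and a summed level of 150 to 214 FPKM in the libraries labelled FTbR2KO against 140 to 212 FPKM in the controls. The endothelial and mural sums overlapped between the groups. Of the 9 tested mural markers, 7 had a log2 fold change above 0 and 2 below, with a median of 0.11. Their smallest limma adjusted p was 0.604. Ndufa4l2 (log2 fold change -0.24) supplied much of the mural sum. It had 51.9 to 74.1 FPKM in the libraries labelled FTbR2KO and 54.9 to 112 FPKM in the controls. The macrophage list summed to 7.60 to 10.9 FPKM in the libraries labelled FTbR2KO against 8.15 to 11.1 FPKM in the controls, and the cardiomyocyte list to 3.03 to 6.00 FPKM against 4.31 to 6.72 FPKM in the controls. Both are low beside the fibroblast list. The epicardial and mesothelial list summed to 68.4 to 117 FPKM in the libraries labelled FTbR2KO, against 41.2 to 86.1 FPKM in the controls. Of its 10 markers 8 were tested, and all 8 had a log2 fold change above 0, with a median of 0.41 and no limma adjusted p below 0.571. Aldh1a2 supplied much of the sum, at 57.9 to 87.8 FPKM in the libraries labelled FTbR2KO and 31.9 to 69.1 FPKM in the controls. It was lowest in TbR2fl/fl 5, unlike Upk3b and Msln, which were high there. The Schwann list summed to 9.56 to 10.1 FPKM in the libraries labelled FTbR2KO, against 7.31 to 9.35 FPKM in the controls. The Schwann sums did not overlap between the groups, and those of the other lists did, the mesothelial list among them. Cdh19 supplied much of the Schwann sum, at 5.13 to 6.66 FPKM in the libraries labelled FTbR2KO and 3.44 to 6.56 FPKM in the controls. Of the 10 Schwann markers, 8 stayed under 1 FPKM in every library. The groups overlapped in each of the 2 tested Schwann markers. The part of these cell types in the results below was not tested. No marker was at 0 in all 8 libraries. In sorted bulk cells, fewer cells of a type and less RNA per cell cannot be told apart.

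Transcript levels differed widely among the families. Col4a1, Col4a2, Col15a1, Nid1, Hspg2 and Lamc1 each averaged above 300 FPKM in both groups. The 6 genes below the filter were Lama1, Lama3, Lamb3, Fras1, Frem2 and Npnt, and none of them passed 1 FPKM in any library. None of the 29 tested genes differed between the groups at an adjusted p of 0.05 (limma with Benjamini-Hochberg adjustment over 11667 genes), where 0.0171% of all tested genes did. A fit with limma's voom on the reads recovered from the FPKM also called 0. The smallest adjusted p among them was 0.571, for Nid2. At an unadjusted limma p under 0.05, 1 gene was higher (Nid2) and 0 were lower in the libraries labelled FTbR2KO, against 3.74% higher and 4.87% lower among all tested genes. In 1 of the 29, again Nid2, every library labelled FTbR2KO lay above every control, against 2.52% of all tested genes, and in 0 every one lay below, against 1.89%. Of the 29, 24 had a log2 fold change above 0, where 48.8% of all tested genes did. The median log2 fold change was 0.13 over the 29 genes and -0.0045 over all tested genes. Log2 fold changes are those of FPKM + 1, labelled FTbR2KO over TbR2fl/fl, and understate the change of low genes.

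**Figure D1:**
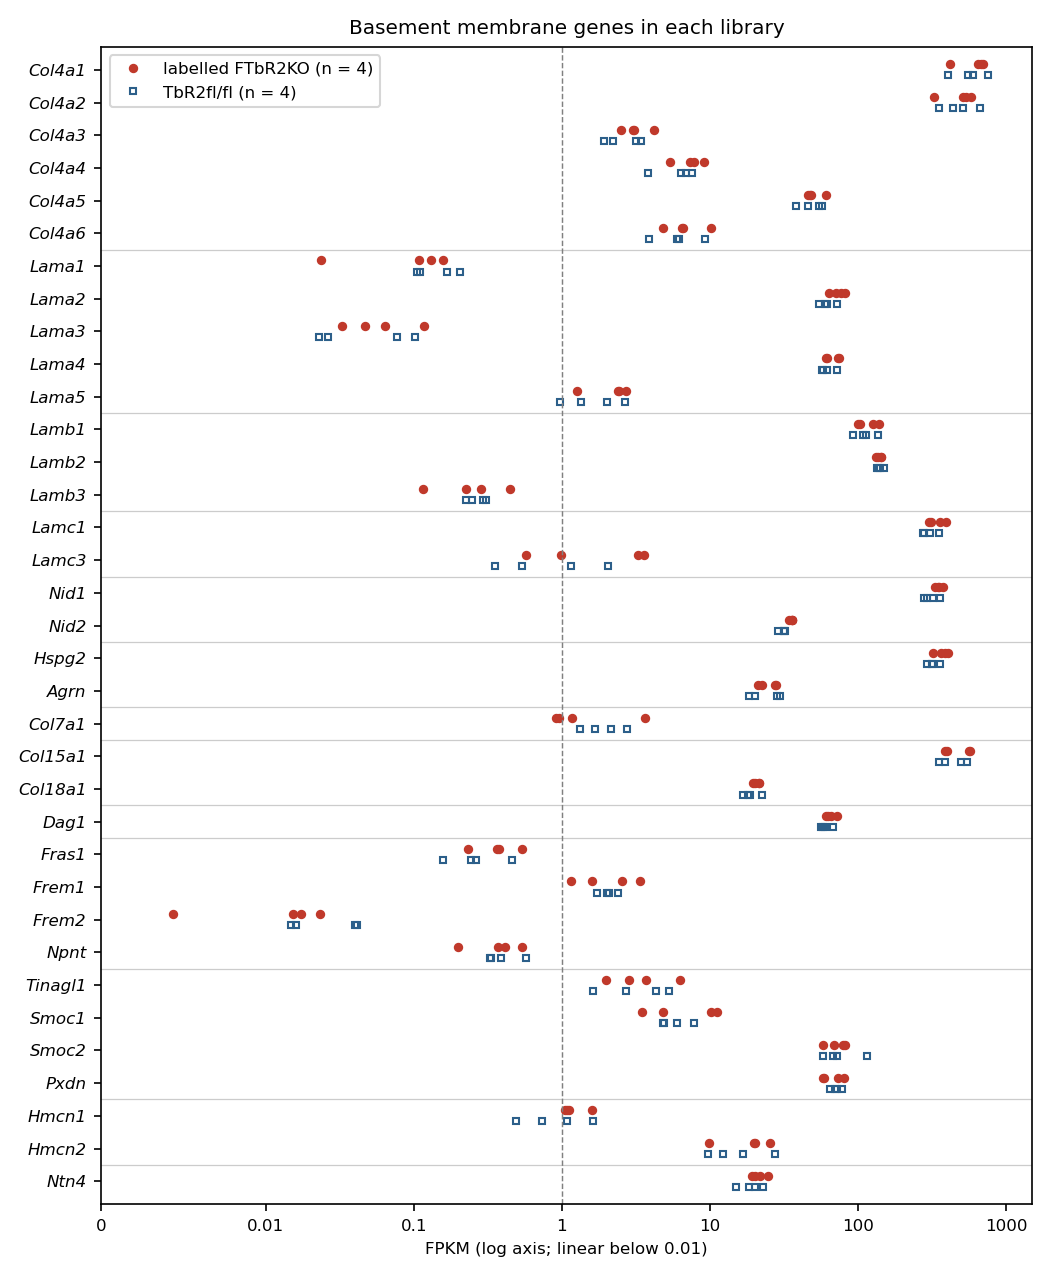
FPKM of the 35 basement membrane genes in each library, on an axis that is logarithmic above 0.01 and linear below it. Filled circles are the 4 libraries labelled FTbR2KO, open squares the 4 TbR2fl/fl controls, and the dashed line marks 1 FPKM. The 6 genes below the filter lie left of the line throughout, and the groups overlap in every tested gene except Nid2.

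Collagen IV comes in chain pairs whose genes lie head to head. Col4a1 (chromosome 8, 11198423 to 11312826, minus strand) and Col4a2 (11312805 to 11449287, plus strand) encode the chains of the common α1α1α2 trimer, and their annotated 5′ ends overlap by 22 bases. Col4a4 (chromosome 1, 82448423 to 82586849, minus strand) and Col4a3 (82586921 to 82722059, plus strand) encode chains of the α3α4α5 trimer known from glomerular basement membrane. Their outermost annotated gene starts leave 71 bases between them. Col4a6 (chromosome X, 141165403 to 141474076, minus strand) and Col4a5 (141475385 to 141689234, plus strand) start 1308 bases apart. The stretches between or before these starts are shown because they are the shared or facing promoter regions of genes whose levels are compared pair by pair. They come from RefSeq on GRCm38.p6, and a stretch that an annotated exon covers was left out. Capitals mark matches, on either strand, to the GC box GGGCGG or the CCAAT box. The searches for the TATA box TATAAA, the AP-1 site TGANTCA and the Smad palindrome GTCTAGAC found no match in them.
Col4a4, chr1:82586850-82586920, minus strand: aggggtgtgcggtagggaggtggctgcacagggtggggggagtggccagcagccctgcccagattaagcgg
Col4a6, chrX:141474077-141474326, minus strand: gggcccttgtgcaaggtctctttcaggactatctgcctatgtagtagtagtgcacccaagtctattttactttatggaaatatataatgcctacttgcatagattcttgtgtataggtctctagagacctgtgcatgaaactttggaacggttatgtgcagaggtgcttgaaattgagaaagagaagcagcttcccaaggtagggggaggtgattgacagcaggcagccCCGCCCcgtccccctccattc
Col4a5, chrX:141475169-141475384, plus strand: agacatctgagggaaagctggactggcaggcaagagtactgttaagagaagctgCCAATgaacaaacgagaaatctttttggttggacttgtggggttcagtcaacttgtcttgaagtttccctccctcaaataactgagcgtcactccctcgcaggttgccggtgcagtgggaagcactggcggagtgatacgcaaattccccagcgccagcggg

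Promoters of the main nidogen and perlecan genes were read the same way, since both genes are among the most abundant described here and the 8 smallest p-values include theirs. The Nid1 stretch held 1 GC box and 1 CCAAT box, and the Hspg2 stretch held 5 GC boxes.
Nid1, chr13:13437352-13437550, plus strand: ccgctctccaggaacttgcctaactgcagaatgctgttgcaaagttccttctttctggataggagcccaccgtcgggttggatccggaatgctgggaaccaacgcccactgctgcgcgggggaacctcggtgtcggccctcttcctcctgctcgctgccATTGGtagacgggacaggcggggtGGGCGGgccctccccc
Hspg2, chr4:137468553-137468768, plus strand: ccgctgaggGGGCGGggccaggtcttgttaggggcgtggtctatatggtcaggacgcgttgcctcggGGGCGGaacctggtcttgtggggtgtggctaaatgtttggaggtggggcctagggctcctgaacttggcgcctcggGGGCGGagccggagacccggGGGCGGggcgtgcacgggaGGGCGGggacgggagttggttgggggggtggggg

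RefSeq gave 32 promoter windows for 25 of the 35 genes, each read over the 250 bases before the start. A GC box was found in 53.12% of them, against 32.74% of all 32851 windows of that length. CCAAT was found in 37.5% against 33.85%, TGANTCA in 6.25% against 6.749%, TATAAA in 0% against 12.37%, and GTCTAGAC in 0% against 0.1674%. These shares are descriptions of letters in a fixed window.

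Col4a1 had 419, 646, 675 and 702 FPKM in FTbR2KO 1 to 4, against 405, 601, 559 and 759 FPKM in TbR2fl/fl 5 to 8. Col4a2 had 326, 510, 540 and 578 FPKM in the libraries labelled FTbR2KO, against 354, 516, 441 and 664 FPKM in the controls. Both genes were lowest in FTbR2KO 1 and TbR2fl/fl 5 and highest in TbR2fl/fl 8, so the spread ran across the groups. The log2 fold change was 0.079 for Col4a1 (SE 0.23, 95% confidence interval -0.43 to 0.59) and -0.011 for Col4a2 (SE 0.23, interval -0.54 to 0.52). Without FTbR2KO 1 and TbR2fl/fl 5 the Col4a2 value was 0.025. The pair kept nearly fixed proportions while each gene varied: Col4a1 over Col4a2 ran from 1.14 to 1.28 over the 8 libraries, a span of 1.12-fold, when Col4a1 itself spanned 1.88-fold and Col4a2 2.03-fold. The ratio averaged 1.25 ± 0.0302 in the libraries labelled FTbR2KO and 1.18 ± 0.0587 in the controls (SD, n = 4 each). Tested on log2 ratios, the exact two-sided permutation p was 0.0857, with an adjusted p of 0.257 over the 6 ratios compared. The other ratios were tested on the same scale.

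Col4a4 had 9.11, 7.29, 5.39 and 7.81 FPKM in the libraries labelled FTbR2KO, against 6.37, 3.80, 7.53 and 6.92 FPKM in the controls. Its lowest library was TbR2fl/fl 6 and its highest FTbR2KO 1, and the groups overlapped. The log2 fold change was 0.25 (SE 0.19, limma adjusted p = 0.736), and 0.065 without TbR2fl/fl 6. Its partner Col4a3 ranged from 2.49 to 4.21 FPKM in the libraries labelled FTbR2KO and from 1.92 to 3.45 FPKM in the controls (log2 fold change 0.19). Without FTbR2KO 1 and TbR2fl/fl 5 the Col4a3 value was 0.024, and without FTbR2KO 1 alone 0.084. Its FPKM may include reads of the opposite-strand gene C430014B12Rik, which shares 5.649% of its exon bases and had 0.114 ± 0.0527 FPKM in the libraries labelled FTbR2KO and 0.124 ± 0.0446 FPKM in the controls (SD, n = 4 each). Col4a3 stood at 0.432 ± 0.0355 of Col4a4 in the libraries labelled FTbR2KO and at 0.442 ± 0.0674 in the controls (exact two-sided permutation p = 1.0).

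Col4a5 ranged from 46.2 to 60.6 FPKM in the libraries labelled FTbR2KO and from 38.1 to 56.9 FPKM in the controls (log2 fold change 0.062). Col4a6 ranged from 4.83 to 10.2 FPKM in the libraries labelled FTbR2KO and from 3.91 to 9.23 FPKM in the controls (log2 fold change 0.14). Both X-linked chains were highest in FTbR2KO 1 and TbR2fl/fl 5, the libraries in which Col4a1 and Col4a2 were lowest. Col4a6 stood at 0.137 ± 0.0277 of Col4a5 in the libraries labelled FTbR2KO and at 0.128 ± 0.0269 in the controls (exact two-sided permutation p = 0.629, adjusted p = 0.986). In these 2 libraries Col4a5 made up 7.31% and 6.82% of the summed collagen IV FPKM, against 3.27% to 4.32% in the other 6. Col4a1 and Col4a2 supplied most of the sum in every library, at 48.6% to 53.0% and 39.3% to 44.5%. The sum of the 6 chains was 1167 ± 231 FPKM in the libraries labelled FTbR2KO and 1139 ± 274 FPKM in the controls (SD, n = 4 each), a difference far inside the spread between libraries.

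**Figure D2:**
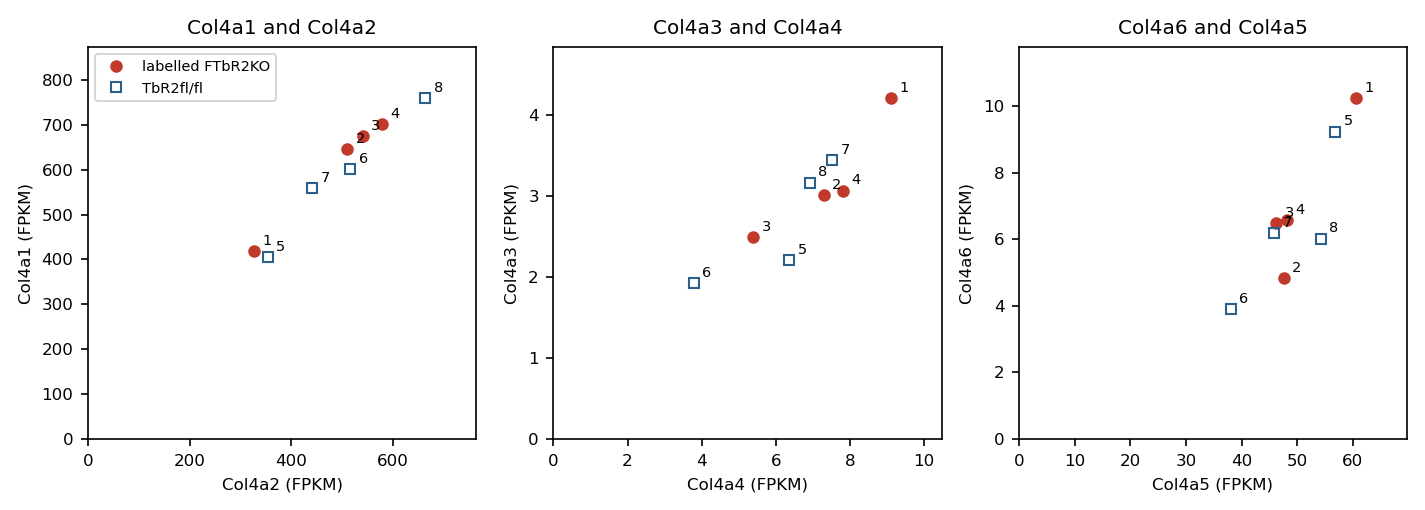
FPKM of the collagen IV genes in each library, plotted as the 3 head-to-head pairs on linear axes from 0; filled circles are libraries labelled FTbR2KO, open squares TbR2fl/fl controls, and the numbers are the library numbers. Col4a1 and Col4a2 lie close to a line with libraries 1 and 5 at the low end, whereas for Col4a6 and Col4a5 libraries 1 and 5 are at the high end.

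Among the laminin α chains, which carry the cell-binding domains, Lama2 and Lama4 made up nearly all of the measured level. Lama2, the α chain of the muscle laminin that dystroglycan binds, had 70.9, 81.3, 63.9 and 77.1 FPKM in the libraries labelled FTbR2KO, against 59.5, 54.6, 72.7 and 62.1 FPKM in the controls. Only TbR2fl/fl 7 among the controls reached into the range of the libraries labelled FTbR2KO. The log2 fold change was 0.24 (SE 0.12, interval -0.027 to 0.50, limma adjusted p = 0.598). Lama4, the α chain of vessel and mesenchymal laminins, had 61.5, 73.5, 61.4 and 74.7 FPKM in the libraries labelled FTbR2KO, against 57.1, 58.0, 72.1 and 61.5 FPKM in the controls. The groups overlapped, and TbR2fl/fl 7 was again the highest control (log2 fold change 0.12, SE 0.11, limma adjusted p = 0.763). Lama2 over Lama4 averaged 1.08 ± 0.0566 in the libraries labelled FTbR2KO and 1.00 ± 0.0423 in the controls (SD, n = 4 each; exact two-sided permutation p = 0.0857, adjusted p = 0.257). Lama5, an α chain of epithelial and endothelial layers, ranged from 1.28 to 2.72 FPKM in the libraries labelled FTbR2KO and from 0.965 to 2.67 FPKM in the controls (log2 fold change 0.24). Lama1, an early embryonic chain, had at most 0.157 FPKM in the libraries labelled FTbR2KO and 0.204 FPKM in the controls. Lama3, the α chain of the epidermal laminin, had at most 0.118 FPKM in the libraries labelled FTbR2KO and 0.101 FPKM in the controls.

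The β chains were divided between Lamb1 and Lamb2. Lamb1 had 104, 127, 99.8 and 139 FPKM in the libraries labelled FTbR2KO, against 93.3, 108, 137 and 114 FPKM in the controls. The groups overlapped over most of their range (log2 fold change 0.058, SE 0.15). Lamb2, the β chain of synaptic, glomerular and vessel laminins, was the steadiest of the abundant laminin genes, at 133 to 144 FPKM in the libraries labelled FTbR2KO and 135 to 149 FPKM in the controls (log2 fold change -0.015, interval -0.21 to 0.18). Lamb1 over Lamb2 averaged 0.852 ± 0.170 in the libraries labelled FTbR2KO and 0.802 ± 0.0968 in the controls (SD, n = 4 each; exact two-sided permutation p = 0.657, adjusted p = 0.986). Lamb3, the β chain of the epidermal laminin, ranged from 0.115 to 0.444 FPKM in the libraries labelled FTbR2KO and from 0.227 to 0.308 FPKM in the controls.

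Lamc1, the γ chain shared by most laminins, supplied 98.9% to 99.9% of the γ chain FPKM. It had 311, 359, 300 and 394 FPKM in the libraries labelled FTbR2KO, against 278, 273, 354 and 309 FPKM in the controls. The highest value came from FTbR2KO 4 and the lowest from TbR2fl/fl 6, with overlap between (log2 fold change 0.17, SE 0.13, limma adjusted p = 0.738). Lamc3, a γ chain of restricted distribution, had 3.57, 0.992, 3.27 and 0.575 FPKM in the libraries labelled FTbR2KO, against 2.06, 0.534, 0.353 and 1.16 FPKM in the controls. FTbR2KO 1 and 3 were high and FTbR2KO 4 lay near the lowest controls. The log2 fold change of 0.54 (SE 0.39, limma adjusted p = 0.708) was the largest among the tested basement membrane genes, and its interval ran from -0.33 to 1.41. With 1 library left out it ran from 0.30 (without FTbR2KO 1) to 0.82 (without FTbR2KO 4). Without FTbR2KO 3 it was 0.34, below the 0.37 of Col4a4 in that setting. Upk3b, a mesothelial marker looked up after these values were seen, had 10.4, 2.54, 4.83 and 0.831 FPKM in the libraries labelled FTbR2KO, against 4.38, 2.12, 0.138 and 3.01 FPKM in the controls. It was high in libraries 1, 3, 5 and 8, the same 4 in which Lamc3 was highest. Msln was also highest in these 4. The summed mesothelial list did not have that order, with 101 FPKM in FTbR2KO 2 and 59.1 FPKM in TbR2fl/fl 5. Aldh1a2, which supplied much of that sum, was lowest in TbR2fl/fl 5. The part of mesothelial RNA in the Lamc3 level was not tested. An antisense gene, Gm13441, shares 6.272% of the Lamc3 exon bases and had 1 recovered read over the 8 libraries.

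Nidogens bind laminin γ1 and collagen IV and so tie the networks together. Nid2 (chromosome 14, 19751265 to 19811787, plus strand) had 36.1, 34.3, 35.9 and 36.1 FPKM in the libraries labelled FTbR2KO, against 28.8, 31.9, 31.5 and 32.0 FPKM in the controls. The groups did not overlap, and the lowest library labelled FTbR2KO was 34.3 FPKM against a highest control of 32.0 FPKM. The log2 fold change was 0.19 (SE 0.073, interval 0.026 to 0.36), with an unadjusted limma p of 0.028 and an adjusted p of 0.571, so it did not pass the test over all genes. Rtraf, on the opposite strand, shares 8.446% of the Nid2 exon bases, and the sources used here do not say whether counting used strand. Rtraf had 42.6 ± 3.27 FPKM in the libraries labelled FTbR2KO and 44.0 ± 3.82 FPKM in the controls (SD, n = 4 each), a log2 fold change of -0.045. Nid1 (chromosome 13, 13437551 to 13512269, plus strand) had 350, 355, 331 and 378 FPKM in the libraries labelled FTbR2KO, against 320, 280, 361 and 292 FPKM in the controls. TbR2fl/fl 7 lay among the libraries labelled FTbR2KO and the other controls below them (log2 fold change 0.18, SE 0.11, limma adjusted p = 0.667). Nid1 stood at 9.93 ± 0.579 times Nid2 in the libraries labelled FTbR2KO and at 10.1 ± 1.36 times in the controls (exact two-sided permutation p = 0.886, adjusted p = 1.0).

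Among the proteoglycan cores, Hspg2, which encodes perlecan (chromosome 4, 137468769 to 137570630, plus strand), had 321, 404, 367 and 386 FPKM in the libraries labelled FTbR2KO, against 315, 294, 318 and 360 FPKM in the controls. TbR2fl/fl 8 alone among the controls exceeded FTbR2KO 1, the lowest library labelled FTbR2KO (log2 fold change 0.20, SE 0.12, interval -0.064 to 0.46, limma adjusted p = 0.640). Without FTbR2KO 1 and TbR2fl/fl 5 the groups did not overlap in 2 of the 29 genes, Hspg2 and Nid2, against 16.9% of all tested genes in that setting. Col18a1, whose C-terminal fragment is endostatin, had 20.1, 21.6, 19.5 and 21.5 FPKM in the libraries labelled FTbR2KO, against 18.1, 18.5, 16.6 and 22.4 FPKM in the controls. TbR2fl/fl 8 was the highest of all libraries and the other controls were below every library labelled FTbR2KO (log2 fold change 0.13, SE 0.098, limma adjusted p = 0.728). Col15a1, a related collagen that links banded fibrils to the membrane, ranged from 390 to 569 FPKM in the libraries labelled FTbR2KO and from 352 to 547 FPKM in the controls (log2 fold change 0.10). Agrn, which encodes agrin, ranged from 21.2 to 28.0 FPKM in the libraries labelled FTbR2KO and from 18.5 to 29.8 FPKM in the controls (log2 fold change 0.057).

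The proteins that attach the sheet to cells and stroma gave values of both signs. Dag1, which encodes dystroglycan, ranged from 61.2 to 72.4 FPKM in the libraries labelled FTbR2KO and from 56.6 to 68.4 FPKM in the controls (log2 fold change 0.11). Col7a1, the collagen of epidermal anchoring fibrils, had 0.918, 0.957, 1.18 and 3.66 FPKM in the libraries labelled FTbR2KO, against 1.67, 2.14, 1.33 and 2.74 FPKM in the controls. FTbR2KO 1 to 3 lay below every control and FTbR2KO 4 above them all (log2 fold change -0.23, SE 0.28, limma adjusted p = 0.827). Without FTbR2KO 4 the Col7a1 value was -0.54, and over the single libraries left out it ran from there to -0.11. The Fras and Frem proteins form a complex under embryonic epithelia. Frem1 ranged from 1.16 to 3.39 FPKM in the libraries labelled FTbR2KO and from 1.74 to 2.40 FPKM in the controls, with a log2 fold change of 0.003. Fras1 averaged 0.377 ± 0.125 FPKM in the libraries labelled FTbR2KO and 0.282 ± 0.130 FPKM in the controls, and Frem2 0.0150 ± 0.00785 FPKM in the libraries labelled FTbR2KO and 0.0279 ± 0.0146 FPKM in the controls (SD, n = 4 each). The groups overlapped in both. Npnt, which encodes the integrin α8β1 ligand nephronectin, averaged 0.381 ± 0.140 FPKM in the libraries labelled FTbR2KO and 0.406 ± 0.117 FPKM in the controls.

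Of the remaining genes, Ntn4, which encodes a netrin that binds laminin γ chains, had 24.7, 21.9, 19.2 and 20.2 FPKM in the libraries labelled FTbR2KO, against 20.2, 15.0, 22.9 and 18.5 FPKM in the controls. The groups overlapped, with TbR2fl/fl 6 lowest (log2 fold change 0.17, SE 0.13, limma adjusted p = 0.736). Pxdn encodes peroxidasin, the enzyme that forms sulfilimine crosslinks in collagen IV, and ranged from 58.0 to 80.4 FPKM in the libraries labelled FTbR2KO and from 64.4 to 78.1 FPKM in the controls (log2 fold change -0.079). Without libraries 1 and 5 its value was 0.024. Smoc1 and Smoc2 encode calcium-binding matricellular proteins. Smoc1 ranged from 3.46 to 11.2 FPKM in the libraries labelled FTbR2KO and from 4.86 to 7.85 FPKM in the controls (log2 fold change 0.19), and it was high in FTbR2KO 1 and 3, as Lamc3 was. Without libraries 1 and 5 the Smoc1 value was -0.024. Smoc2 ranged from 58.2 to 82.2 FPKM in the libraries labelled FTbR2KO and from 58.2 to 115 FPKM in the controls (log2 fold change -0.074). Tinagl1, which encodes a secreted protein related to tubulointerstitial nephritis antigen, ranged from 1.98 to 6.30 FPKM in the libraries labelled FTbR2KO and from 1.64 to 5.30 FPKM in the controls (log2 fold change 0.067). The hemicentins are long extracellular proteins first described in the worm. Hmcn1 ranged from 1.05 to 1.61 FPKM in the libraries labelled FTbR2KO and from 0.491 to 1.63 FPKM in the controls (log2 fold change 0.18), and Hmcn2 from 9.80 to 25.6 FPKM in the libraries labelled FTbR2KO and from 9.71 to 27.7 FPKM in the controls (log2 fold change 0.20).

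**Figure D3:**
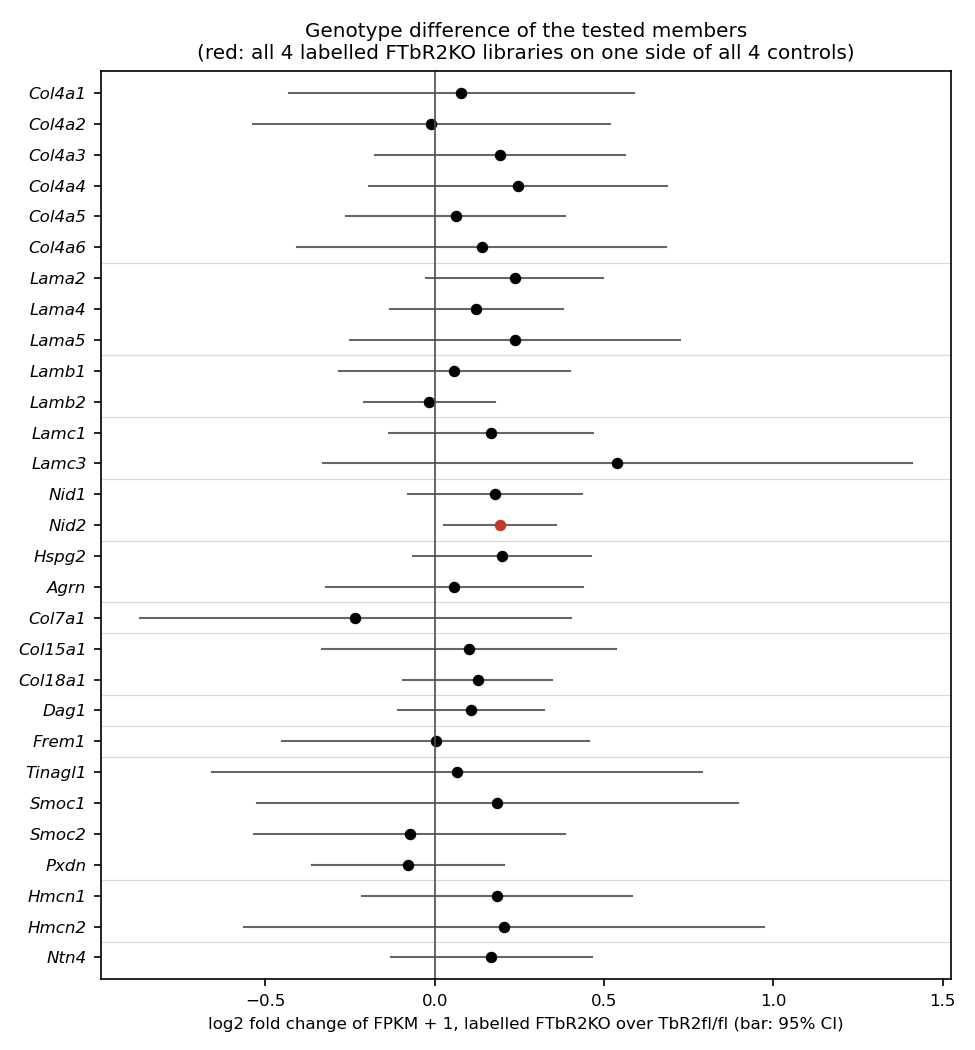
Log2 fold change of FPKM + 1, labelled FTbR2KO over TbR2fl/fl, for the 29 tested basement membrane genes (points), with 95% confidence intervals from limma (bars). Every interval crosses 0 except that of Nid2, drawn in red because its groups do not overlap; 24 points lie above 0.

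The intervals show how precise these comparisons were. The median half-width of the 95% confidence interval was 0.38 on the log2 scale over the 29 genes. Their median within-group SD on this scale was 0.27 (0.055 to 0.66), against 0.16 over all tested genes. The variation was partly shared: TbR2fl/fl 6 was the lowest library for 10 of the 29 genes and below the mean for 24, with a median deviation of -0.22. FTbR2KO 4 was the highest library for 9 of them. These counts were not taken over all tested genes, so whether they are particular to basement membrane genes was not tested. With 1 library left out at a time, 19 to 25 of the 29 genes were above 0 and their median log2 fold change was 0.089 to 0.16. The lowest count, 19, was without TbR2fl/fl 5 (median 0.13), and the lowest median was without TbR2fl/fl 6, with 21 above 0. Without FTbR2KO 1 and TbR2fl/fl 5 together the median was 0.12 and 25 were above 0. Several single values moved without these 2 libraries. In that setting the log2 fold change was 0.35 for Lama5, 0.18 for Col4a4, 0.11 for Agrn, 0.12 for Frem1, 0.19 for Tinagl1 and 0.025 for Lamb1. It was -0.044 for Lamb2, -0.15 for Col7a1 and -0.16 for Smoc2.

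**Figure D4:**
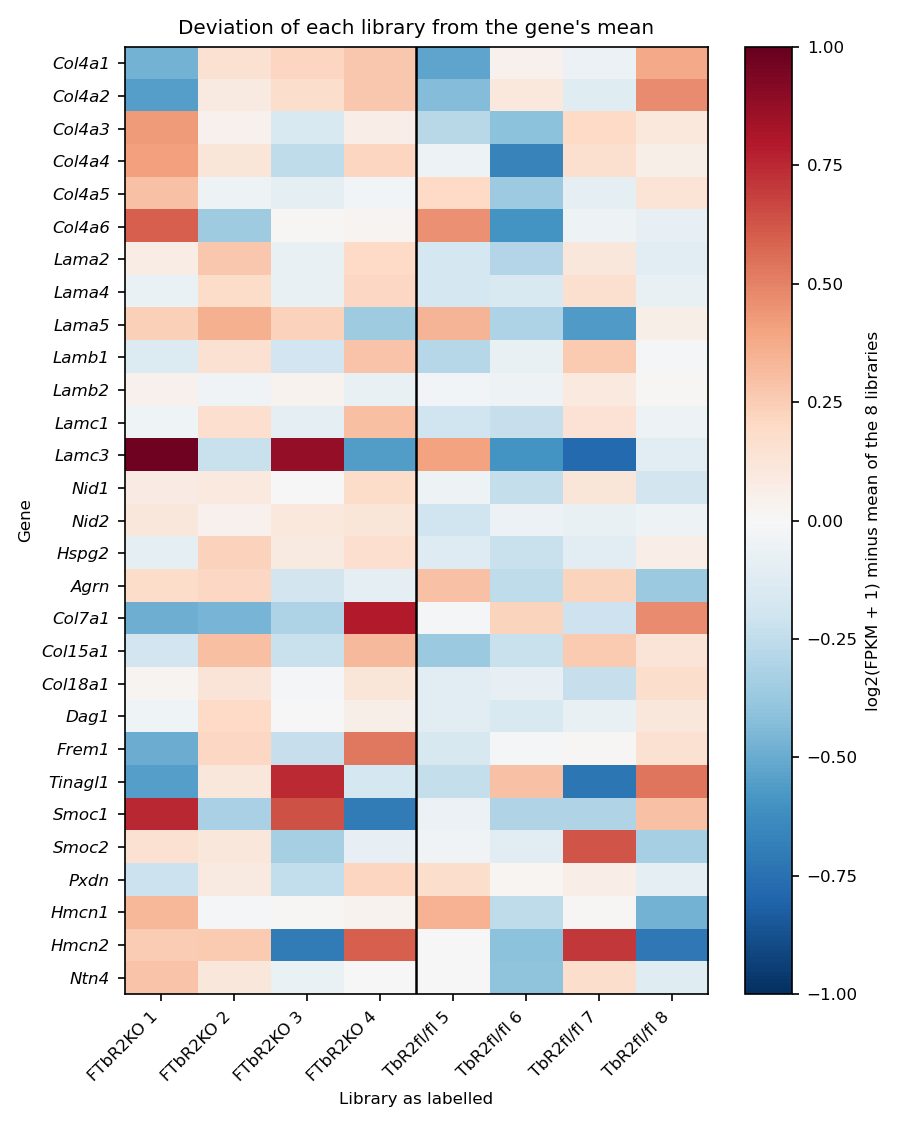
Deviation of each library from the gene's mean over the 8 libraries, as log2(FPKM + 1), for the 29 tested basement membrane genes. Red is above and blue below the mean, and the line parts the libraries labelled FTbR2KO (left) from the TbR2fl/fl controls (right). TbR2fl/fl 6 is blue for 24 genes, and libraries 1 and 5 are blue for Col4a1 and Col4a2 and red for Col4a5 and Col4a6.

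Gene length moved with the sign of the difference over the whole table, and basement membrane genes are long. Their median length was 7.97 kb (3.5 to 21.2 kb), against 4.12 kb for all tested genes, and 26 of the 29 were over 5 kb. Among all tested genes the median log2 fold change was -0.12 below 1 kb, -0.10 from 1 to 2 kb, -0.061 from 2 to 3 kb, -0.019 from 3 to 5 kb, 0.027 from 5 to 8 kb and 0.085 from 8 kb. Of the 1898 genes of at least 8 kb, 79.2% were above 0. Of the 14 basement membrane genes of that length, 12 were above 0 with a median of 0.18. From 5 to 8 kb 9 of 12 were above 0 with a median of 0.10, where 59.5% of all genes were. Set against the median of all genes in its own length range, 21 of the 29 lay above it. Over all 29 genes the median difference from it was 0.085. With each library's trend on gene length removed, 21 of the 29 were above 0, the median was 0.079, and the groups did not overlap in 1 gene, Nid2, against 3.38% of all tested genes in that setting. The part of gene length in the count of 24 genes above 0 beyond these values was not tested.

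**Figure D5:**
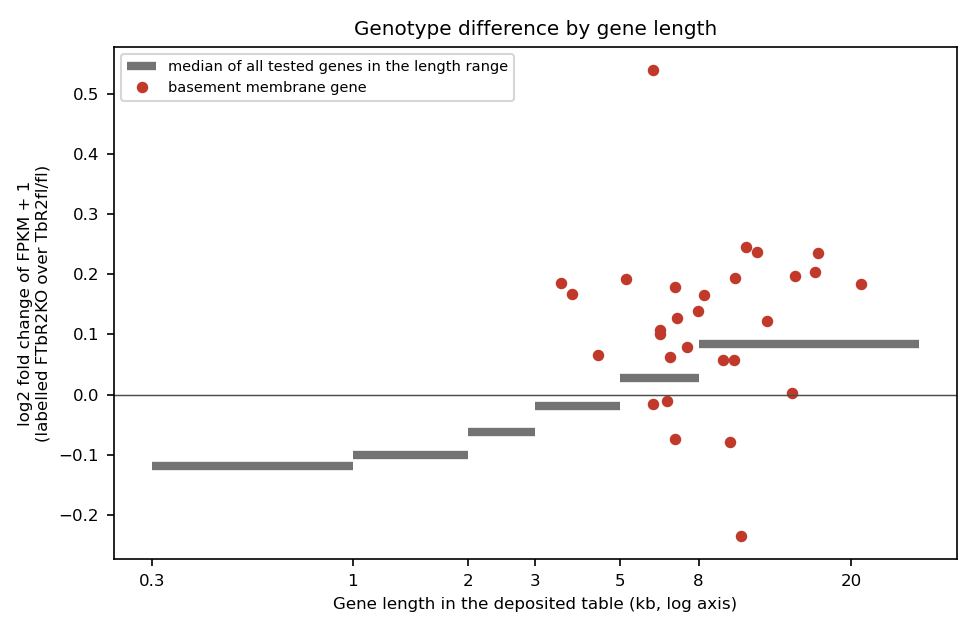
Log2 fold change of FPKM + 1, labelled FTbR2KO over TbR2fl/fl, against gene length in kb on a log axis. Grey bars are the medians of all tested genes in 6 length ranges, which run from -0.12 for the shortest to 0.085 for the longest genes, and red points are the 29 tested basement membrane genes, most of them above the bar of their range.

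Genes that act on the basement membrane were read from the same fit, and 0 of them passed the test, against 0.0171% of all tested genes. At an unadjusted limma p under 0.05 there was 1, Ddr2, higher in the libraries labelled FTbR2KO. Among all tested genes 3.74% were higher and 4.87% lower at that p. The number tested is given for each list below. Values are means ± SD of 4 libraries a group. A list of 21 genes held receptors for laminin and collagens, with coreceptors and members of the dystroglycan complex. Of these 21, 18 were tested, with 14 above and 4 below 0 and a median log2 fold change of 0.072. Ddr2, a collagen receptor kinase that is also on the fibroblast marker list, averaged 35.2 ± 6.48 FPKM in the libraries labelled FTbR2KO and 25.6 ± 4.11 FPKM in the controls (log2 fold change 0.44, SE 0.15, limma adjusted p = 0.571). Sdc1, a heparan sulfate coreceptor, averaged 47.2 ± 5.25 FPKM in the libraries labelled FTbR2KO and 55.4 ± 3.80 FPKM in the controls (log2 fold change -0.23, SE 0.10, limma adjusted p = 0.587). In Sdc1, 1 of these 18 genes, every library labelled FTbR2KO lay below every control, against 1.89% of all tested genes. Sgcd, a sarcoglycan of the dystroglycan complex, averaged 2.24 ± 0.166 FPKM in the libraries labelled FTbR2KO and 1.82 ± 0.322 FPKM in the controls (log2 fold change 0.21).

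Of 20 genes for collagen IV folding, crosslinking and turnover, 19 were found by name in the deposited gene table. Of these, 18 were tested, 9 above and 9 below 0, with a median of -0.0014. Adamts1, a secreted metalloproteinase, averaged 82.2 ± 11.9 FPKM in the libraries labelled FTbR2KO and 64.4 ± 14.5 FPKM in the controls (log2 fold change 0.36, SE 0.17). P4ha2, a collagen prolyl hydroxylase subunit, averaged 9.44 ± 1.02 FPKM in the libraries labelled FTbR2KO and 10.9 ± 0.913 FPKM in the controls (log2 fold change -0.19), and Timp3, a matrix-bound metalloproteinase inhibitor, 96.4 ± 15.5 FPKM in the libraries labelled FTbR2KO and 80.3 ± 16.6 FPKM in the controls (log2 fold change 0.27). All 17 genes for heparan sulfate synthesis and removal were tested, 10 above and 7 below 0, with a median of 0.023. Xylt2, which starts the linker of the chain, averaged 11.0 ± 1.30 FPKM in the libraries labelled FTbR2KO and 12.7 ± 0.790 FPKM in the controls (log2 fold change -0.20). Hpse, the heparanase that cuts it, averaged 2.57 ± 0.658 FPKM in the libraries labelled FTbR2KO and 1.92 ± 0.266 FPKM in the controls (log2 fold change 0.28), and B3gat3, another linker enzyme, 20.5 ± 2.36 FPKM in the libraries labelled FTbR2KO and 23.1 ± 2.78 FPKM in the controls (log2 fold change -0.16). Of 14 genes that put the laminin-binding glycan on dystroglycan, 11 were found by name. Of these, 10 were tested, 5 above and 5 below 0, with a median of -0.0052. The 3 with the smallest p were Pomk (log2 fold change -0.083), Pomgnt2 (-0.15) and Pomt1 (0.085). The lists thus gave medians on both sides of 0, and no gene in them passed the adjusted threshold.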

How the data were processed

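Poly(A) RNA of sorted cardiac fibroblasts was sequenced from 8 libraries, 4 in each group. Values are gene-level FPKM that the authors deposited, with gene coordinates and lengths per the file headers. Tools named in the submitters' processing notes are HTSeq 0.6.1, Cufflinks 2.1.1, TopHat2 2.0 and CASAVA, and builds named there are GRCm38.p6 and mm10; the notes as used here assign them no role. Strand use in counting is not stated in the sources used here. FPKM times gene length fell on whole multiples of 1 step per library, 100% within 0.01, which gave the reads per gene and, summed over genes, per library.

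The 35 genes, the related lists and the alternatives were chosen with earlier results of these data known. The 11667 genes that reached 1 FPKM in 4 or more libraries were tested on log2(FPKM + 1) with limma 3.58.1 in R 4.3.3, with trended empirical Bayes variance, no covariate, Benjamini-Hochberg adjustment over all tested genes and a threshold of 0.05, two-sided. Single values, and ratios on the log2 scale, were compared by exact two-sided permutation tests. The test was tried on simulated data. Values per library are printed for the 8 genes with the smallest p, for the main chains Col4a1, Col4a2, Lama2, Lama4, Lamb1, Lamc1, Nid1, Nid2 and Hspg2, and for Col7a1, added after its values were seen; other genes are given by range, or by mean ± SD for some below the filter. The 3 smallest p were named from each related list. Coordinates and lengths of all 35 genes matched GENCODE M21, and 12 share exon bases with another gene, 3 of them over 5%. Alternatives were other pseudocounts, filters, scalings, weights, a length correction, voom on recovered reads (added after the data were seen) and leaving out libraries. The labels name no batch.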

Additional observations from a re-analysis of the deposited data

Results flagged for a closer look

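In 4 of 72 groups of 4 values, 1 library lay far from the other 3 by the gap between it and its nearest neighbour relative to the whole range; chance alone gives about 1 in 20 groups. Col4a5 had 60.6 FPKM in FTbR2KO 1, against 46.2 to 48.2 FPKM in the other 3 libraries labelled FTbR2KO. Hmcn1 had 1.61 FPKM in the same library, against 1.05 to 1.12 FPKM. Col7a1 had 3.66 FPKM in FTbR2KO 4, against 0.918 to 1.18 FPKM. Nid2 had 34.3 FPKM in FTbR2KO 2, against 35.9 to 36.1 FPKM, and that library was still above every control.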

How the results depend on the processing

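Under all 18 alternatives 0 basement membrane genes passed limma's threshold, and the smallest adjusted p of any was 0.216 (Lama2, with array weights). Of the 29 genes, 19 (without TbR2fl/fl 5) to 28 (TPM) were above 0, with 18 of 22 under the stricter filter (5 FPKM or more) and 26 of 35 with no filter. All tested genes past the threshold numbered 2, 1 under the stricter filter, and 2 to 8 when 1 library was left out (8 without FTbR2KO 4). Conversion to TPM moved the median of all genes to 0.15, so the 29 genes' median of 0.297 lay about as far above it as before, and groups did not overlap in 6 of 29 genes, against 5.31% of all tested genes (4.41% as reported, either direction). Leaving out 1 library gave 1 to 4 such genes, Nid2 in each case. They included Hspg2, Col18a1 and Dag1 without TbR2fl/fl 8 (7.15% of all genes), Lama2 and Nid1 without TbR2fl/fl 7 (7.59%), Hspg2 without FTbR2KO 1 (7.76%) and Col7a1, lower, without FTbR2KO 4 (12.9%). There was 1 without TbR2fl/fl 5 (13.1%), and there were 2 without FTbR2KO 1 and TbR2fl/fl 5 (16.9%). The log2 fold change kept its sign throughout in 15 of the 29 genes and changed it in 14, none of them past the test; the cause was not tested. With TPM it was 0.16 for Col4a2, 0.15 for Lamb2, 0.092 for Smoc2 and 0.086 for Pxdn. With quantile normalization it was 0.045 for Col4a2, 0.087 for Lamb2 and -0.0079 for Frem1, which also gave -0.027 with a pseudocount of 0.1 and -0.0063 with voom. With the length trend removed it was -0.017 for Lamb1, -0.011 for Agrn and -0.10 for Frem1. Without FTbR2KO 1 and TbR2fl/fl 5 it was 0.025 for Col4a2, -0.024 for Smoc1 and 0.024 for Pxdn. Leaving out 1 library gave ranges of -0.083 to 0.25 for Col4a1, -0.16 to 0.17 for Col4a2, -0.048 to 0.14 for Col4a5, -0.038 to 0.32 for Col4a6, -0.029 to 0.15 for Lamb1, -0.034 to 0.013 for Lamb2, -0.057 to 0.16 for Agrn, -0.0047 to 0.21 for Col15a1, -0.17 to 0.17 for Frem1, -0.17 to 0.26 for Tinagl1, -0.037 to 0.45 for Smoc1, -0.20 to 0.12 for Smoc2 and -0.00032 to 0.47 for Hmcn2. edgeR and DESeq2 on recovered reads were not run, since the values are FPKM, and voom took their place. No paired analysis was run, since the labels name no pairs of libraries across the groups. The reads behind a value ran from 1 (Frem2) to 161274 (Col4a1) per library.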
